A study of Mus musculus with 4 samples.

Results

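The replication-dependent histone genes are the protein-coding genes that supply the bulk of chromatin proteins during DNA replication. They were taken as every protein-coding gene of the 4 deposited count files whose GENCODE M21 symbol begins with Hist1h, Hist2h, Hist3h or Hist4, which gave 64 of the 43629 gene identifiers. By symbol, 6 encode the linker histone H1, 18 encode H2A, 15 encode H2B, 12 encode H3 and 13 encode H4. A further 3 matching symbols, Hist1h2bh, Hist1h2bm and Hist2h2bb, were not analysed here. The samples were pancreatic islets of C57BL/6 mice, with 1 library in each of 4 groups. The first group was control islets, whose genotype is given as control. The second group had the genotype Rip2;IMP2, which the series title presents as an islet knockout of the RNA-binding protein IMP2. The remaining groups were RNA from wild-type (WT) islets recovered with IMP2 (RNA immunoprecipitation, RIP) and a WT library titled IgG, named for the nonspecific antibody that serves as control. Rip2 commonly denotes an insulin promoter used to direct deletion to beta cells, which would leave the gene intact in other cells of the preparation. The sources used here give neither ages nor any pooling of animals.

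Histones H2A, H2B, H3 and H4 form the nucleosome core around which DNA is wrapped, and H1 binds the DNA between nucleosomes. Most of these genes have no introns, lie in clusters and are transcribed mainly in S phase. Their mRNAs usually end in a short stem-loop in place of a poly(A) tail. The stem-loop is bound by SLBP, and the end is cut with help of the U7 small nuclear ribonucleoprotein. In cells that have left the cell cycle, such as most adult islet cells, some of the same genes are known to give longer mRNAs that end in a poly(A) tail.

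The stem-loop was read from the annotated transcripts because it is the feature that sets these mRNAs apart. The sequences below are shown 5′ to 3′ as DNA letters of GENCODE M21 transcripts (GRCm38), with the 16 bases of the stem and loop in capitals and 5 bases on either side in lower case. They cover the most counted genes of H1, H2A, H2B, H3 and H4 that hold the loop, and the pair Hist1h3e and Hist1h3f, which differ between libraries below.
Hist1h1c (H1), chr13:23739512-23739527, plus strand: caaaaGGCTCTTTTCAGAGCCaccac
Hist3h2ba (H2B), chr11:58949349-58949364, plus strand: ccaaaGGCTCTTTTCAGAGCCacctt
Hist1h2be (H2B), chr13:23585531-23585546, minus strand: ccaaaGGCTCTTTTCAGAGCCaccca
Hist3h2a (H2A), chr11:58955172-58955187, plus strand: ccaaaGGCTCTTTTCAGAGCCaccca
Hist2h3c2 (H3), chr3:96238485-96238500, minus strand: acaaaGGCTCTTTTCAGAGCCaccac
Hist1h3e (H3), chr13:23561903-23561918, minus strand: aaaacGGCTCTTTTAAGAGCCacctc
Hist1h3f (H3), chr13:23544932-23544947, plus strand: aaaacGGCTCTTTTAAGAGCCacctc
Hist1h4i (H4), chr13:22040966-22040981, minus strand: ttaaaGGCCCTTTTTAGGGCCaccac
Hist1h4h (H4), chr13:23531458-23531473, plus strand: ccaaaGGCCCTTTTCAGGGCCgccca
Hist1h4j (H4), chr13:21735437-21735452, plus strand: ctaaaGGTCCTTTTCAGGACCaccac

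The 6 letters on the left of each loop pair with the 6 on the right. The form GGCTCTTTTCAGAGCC was found in 24 genes, namely 3 of H1, 10 of H2A, 6 of H2B and 5 of H3. No H4 gene held it. The H4 genes carried a stem with GGCCC or GGTCC on the left, led by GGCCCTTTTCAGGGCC in 7 genes. In all, 44 of the 64 genes had a stem-loop of this form after the stop codon. Of the rest, 12 have no annotated 3′ UTR, so no search was possible there. The annotated 3′ UTRs of Hist1h2af and Hist1h2ah, of 1 and 2 bases, are also too short to hold the loop. Among 21802 other protein-coding genes, 33 (0.151%) held the same form. They include Hist1h2bh and Hist1h2bm, which match the symbol rule but were not analysed, and the histone genes H2afx and H2bfm. In the 10 transcripts shown the loop begins 24 to 41 bases after the stop codon, and the annotation then runs on for 46 to 1861 bases.

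As shown in the libraries, depth was uneven. Gene counts were 26350813 for control islets, 24275628 for the labelled knockout, 6025594 for the RIP and 13195732 for IgG. Igf2bp2, which encodes IMP2, had 255, 222, 186 and 458 counts in that order, so the library labelled knockout did not have less of it (ratio 0.979, 95% interval 0.814 to 1.18). Counts summed over all exons cannot show whether only some exons were deleted, and that library is called the library labelled knockout throughout. Markers of other tissue also differed. The summed level of 7 lymphocyte markers was 1119 CPM (counts relative to the library's total over genes) for control islets, 202 CPM for the labelled knockout, 146 CPM for the RIP and 5.08 CPM for IgG, where 2 of the 7 were at 0. The summed level of 6 fat markers was 270 (control), 226, 1874 and 27670 CPM (IgG), and that of 7 islet hormone cell markers was 339961, 373845, 261823 and 1113 CPM. The library labelled IgG thus goes against its islet label by its markers, and each comparison with it is one of these libraries. Fewer cells of a type and less RNA per cell cannot be told apart in such bulk samples.

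Histone mRNA was a very small part of each library, and its summed level relative to other genes depended on the scaling. The 64 genes held 7107, 7377, 1863 and 4112 counts in the control, labelled knockout, RIP and IgG libraries. As shares of gene counts, with no further scaling, these are 0.0270% (exact binomial 95% interval 0.0263 to 0.0276), 0.0304% (0.0297 to 0.0311), 0.0309% (0.0295 to 0.0324) and 0.0312% (0.0302 to 0.0321). Under the trimmed-mean scaling used for the ratios below, the sum of all 64 genes gave 1.17 (1.13 to 1.21) for the labelled knockout over control, 1.39 (1.32 to 1.46) for the RIP over control, 2.18 (2.09 to 2.26) for the IgG library over control and 0.615 (0.582 to 0.650) for the RIP over IgG. All intervals and detection limits here cover counting error only, since several reads can come from 1 molecule and no molecular identifiers mark them. Counts were seen for 54, 51, 16 and 16 of the 64 genes. The 8 genes at 0 in all 4 libraries include Hist2h2aa1, Hist2h2aa2 and Hist1h2ap (H2A). A count of 0 allows up to 3 counts, which is 0.114, 0.124, 0.498 and 0.227 CPM in the same order. This limit does not hold for genes whose exons lie wholly in other annotated genes, such as Hist2h2aa1 and Hist2h2aa2. It is also uncertain for genes that share most of their sequence, since reads that align to more than 1 place are not counted. Hist1h2ap, for example, shares 93.1% of its stretches of 50 bases with other genes. Among the 64 genes, 29 were detected in both islet libraries and at 0 in both the RIP and the IgG library. The RIP and IgG libraries are shallower. They also detected fewer genes of all kinds, 15380 and 14105, against 24350 (control) and 24412 (labelled knockout). Low levels of these histone genes may not have been detectable there. Where several reads come from 1 molecule, the limits in CPM are higher than given.

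A pair of genes, Hist1h1c and Hist1h2bc, supplied most histone counts everywhere. Together the 2 highest genes held 64.1%, 68.7%, 73.5% and 71.1% of histone counts in the control, labelled knockout, RIP and IgG libraries. Hist1h1c (ENSMUSG00000036181, chr13:23738808-23740367, plus strand, 1 exon) encodes the linker histone also called H1.2. Its counts were 2950 (control), 3235 (labelled knockout), 913 (RIP) and 1632 (IgG). Per length, this is 71.8, 85.4, 97.1 and 79.3 CPM per kilobase of exon, a narrow range. Hist1h2bc (ENSMUSG00000018102, chr13:23684199-23692908, plus strand, 2 exons) encodes an H2B. It had 1606, 1830, 456 and 1290 counts in the same order, or 52.7, 65.2, 65.5 and 84.6 CPM per kilobase. In control islets both stood well above the next genes per length, Hist3h2ba at 26.1, Hist1h4h at 17.5 and Hist1h4i at 14.4 CPM per kilobase.

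**Figure D1:**
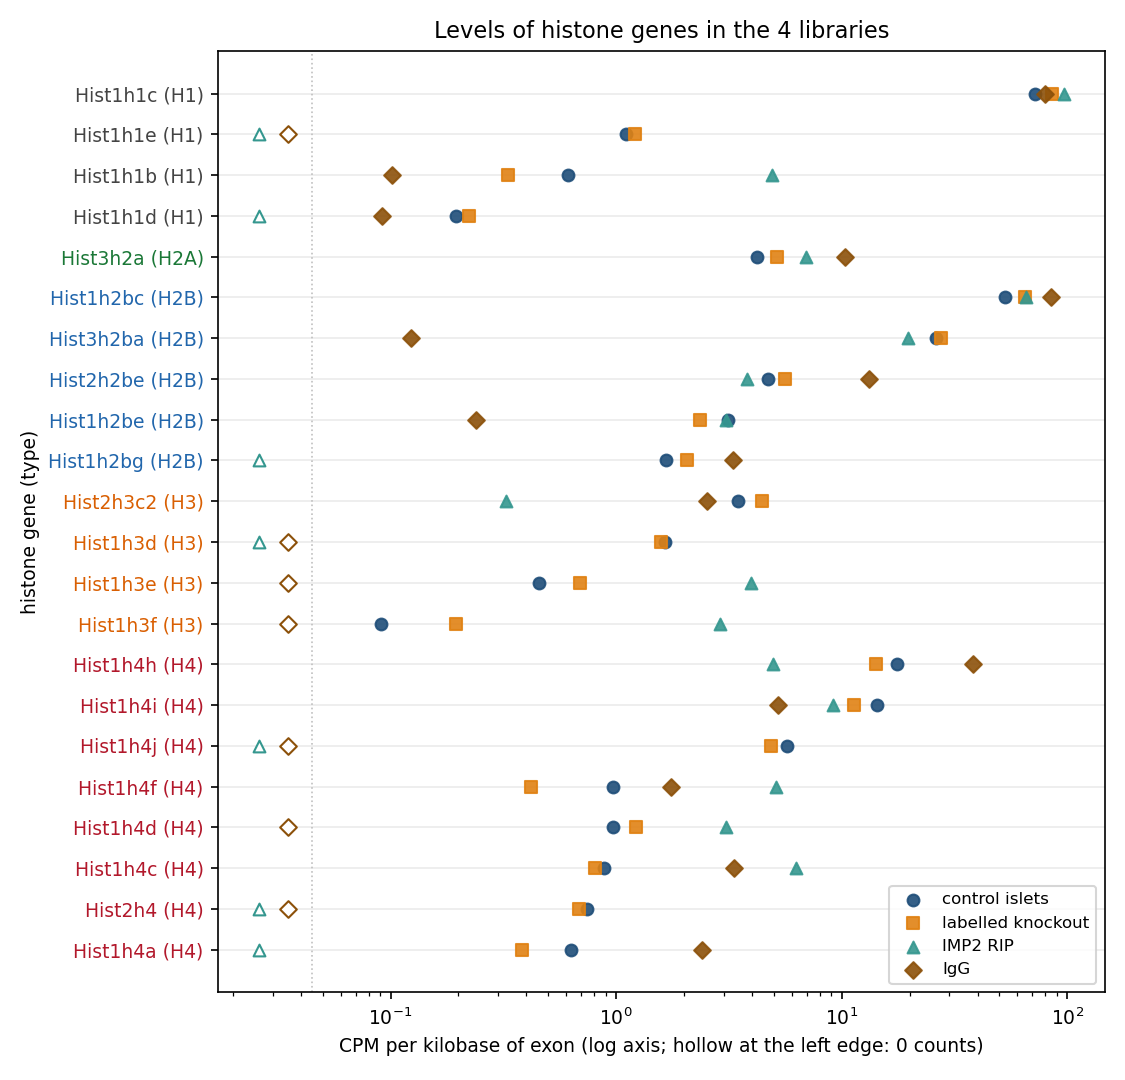
Level of the histone genes with at least 1 CPM in any of the 4 libraries, as CPM per kilobase of annotated exon on a log axis. There is 1 point per library, with hollow points at the left edge for libraries at 0 counts. Hist1h1c and Hist1h2bc lie at the right in every library, while Hist3h2ba and Hist1h2be fall far to the left in the IgG library alone.

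H1 was carried almost wholly by Hist1h1c. This gene made up 96.3%, 96.6%, 97.6% and 99.4% of H1 counts in the control, labelled knockout, RIP and IgG libraries. Hist1h1e had 56, 57, 0 and 0 counts in that order. A stretch of 25.7% of its exonic bases lies in other annotated genes, among them Hist1h2be, so its reads are uncertain. Hist1h1d had 38, 40, 0 and 9 counts in the order control, labelled knockout, RIP and IgG.

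In control islets the core types were spread over more genes, and each had a leading member. Hist3h2a held 77.1% of H2A counts in control islets, with 239, 268, 90 and 294 counts across the control, labelled knockout, RIP and IgG libraries. Its share of H2A counts was 94.7% in the RIP and 100% in IgG, so the spread was not seen there. It is ENSMUSG00000078851 at chr11:58954685-58956830, and 33.0% of its exonic bases lie within Trim17. Reads over both genes may have been left uncounted or assigned to the wrong gene, so its level is uncertain. Of H2B counts in control islets Hist1h2bc held 57.7%, Hist3h2ba 15.2%, Hist1h2be 13.1% and Hist2h2be 11.7%. Hist3h2ba (ENSMUSG00000056895, chr11:58948920-58949533, plus strand) had 422, 411, 73 and 1 counts. Its single IgG count stands against 422 in control islets. Hist1h2be had 366, 253, 82 and 14 counts, and Hist2h2be had 325, 357, 60 and 458. Of the exonic bases of Hist1h2be, 11.2% lie in other annotated genes, among them Hist1h1e, so some of its reads are uncertain too.

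H3 was the least counted type. Hist2h3c2 held 93 of the 186 H3 counts in control islets, with 93, 110, 2 and 34 counts in the order control, labelled knockout, RIP and IgG. In the IgG library it held 100% of H3 counts. Hist1h3d followed with 54, 48, 0 and 0 counts. H4 was led by Hist1h4i (275, 200, 40 and 50 counts), Hist1h4h (217, 162, 14 and 238) and Hist1h4j (117, 91, 0 and 0). Hist1h4h is thus the only one of these 3 that was not lower in raw counts in the IgG library than in control islets. Shares per type of all histone counts were 43.1% H1, 39.2% H2B, 10.7% H4, 4.36% H2A and 2.62% H3 in control islets. The core histones enter the nucleosome in equal numbers, so these counts do not follow the protein proportions. Reads that align to more than 1 place are not counted, and this affects the types unequally.

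**Figure D2:**
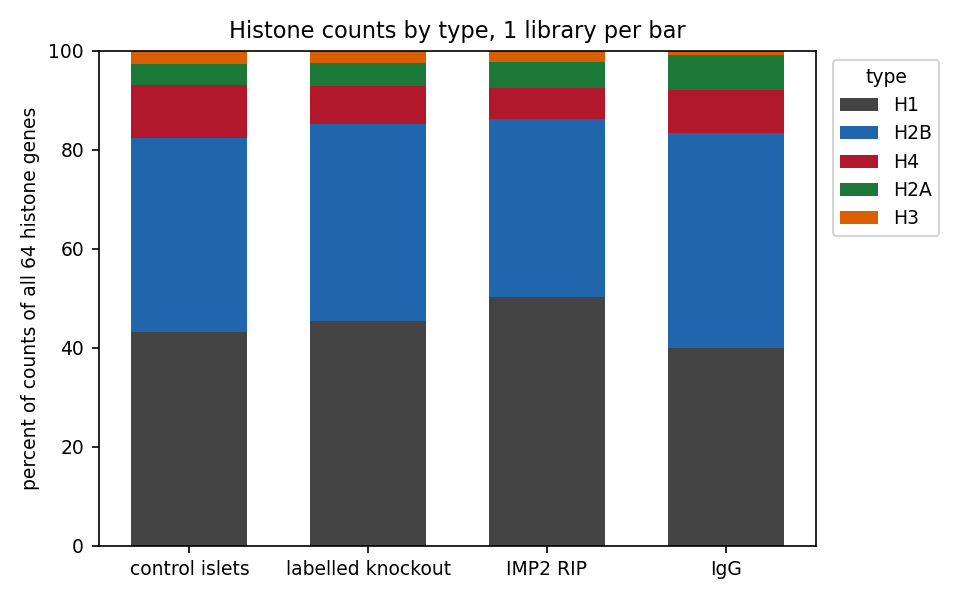
Percent of the counts of all 64 histone genes that fall on each histone type, with 1 bar per library and no replicates. H1 and H2B together fill most of every bar, and H4 goes from 10.7% (control islets) to 7.85% (labelled knockout).

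Shared sequence limits what these counts can show. Of all stretches of 50 bases in a member's exons, the median member shared 54.5% with another gene's transcripts, and 4 members shared every one. The 16 genes with a mean of at least 1 CPM over both islet libraries, called measured below, shared a median of 24.7%. The other 48 shared a median of 66.4%. Their exons were also shorter, with a median of 486.5 bases against 1202.5. The 4 members that share every stretch, Hist2h2aa1, Hist2h2aa2, Hist2h3b and Hist2h3c1, were at 0 in every library. Of their exonic bases 100% also lie in other annotated genes, so reads there may not have been assigned to them. Low or 0 counts of such genes are therefore uncertain.

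The genes with most counts differ in their annotated transcript ends. Members were grouped by whether AATAAA or ATTAAA lies in the last 50 bases of an annotated transcript, a grouping chosen after the values were seen. The 17 genes with such a signal held 70.2%, 68.4%, 68.3% and 65.8% of histone counts in the control, labelled knockout, RIP and IgG libraries. Hist1h1c alone held 41.5%, 43.9%, 49.0% and 39.7%, and without it the other genes with a signal held 49.1%, 43.7%, 37.8% and 43.3% of the remaining counts. The 30 genes with a stem-loop and no such signal held 6.26%, 6.11%, 6.07% and 2.80%. The 17 genes with neither include the 12 with no annotated 3′ UTR, where no search was possible, and Hist1h2af and Hist1h2ah, whose 3′ UTRs are too short. Together these 17 held 23.5%, 25.5%, 25.7% and 31.4%, nearly all of it Hist1h2bc. That gene's annotated transcript has 2 exons and a 3′ UTR of 742 bases without the stem-loop letters. Among other protein-coding genes 77.3% hold a poly(A) signal in the last 50 bases.

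Several leading genes carry both kinds of end. In Hist1h1c the stem-loop starts 24 bases after the stop codon, 840 further bases follow it, and AATAAA lies 26 bases from the transcript's end. In Hist3h2ba 169 bases follow the loop and AATAAA lies 27 bases from the end. In Hist1h2be 1861 bases follow the loop and ATTAAA lies 20 bases from the end. A poly(A) signal of this kind was annotated in 9 of the 16 measured genes and in 8 of the 48 others, and the stem-loop in 14 of 16 and 30 of 48. The 12 genes with no annotated 3′ UTR are all among the 48 others and could not be searched. Hist1h2af and Hist1h2ah, whose 3′ UTRs are too short, are among them too. These shares are therefore not on an equal footing. Counts per gene do not tell which end the counted molecules had. The labels name total RNA and do not say whether poly(A) RNA was selected.

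**Figure D3:**
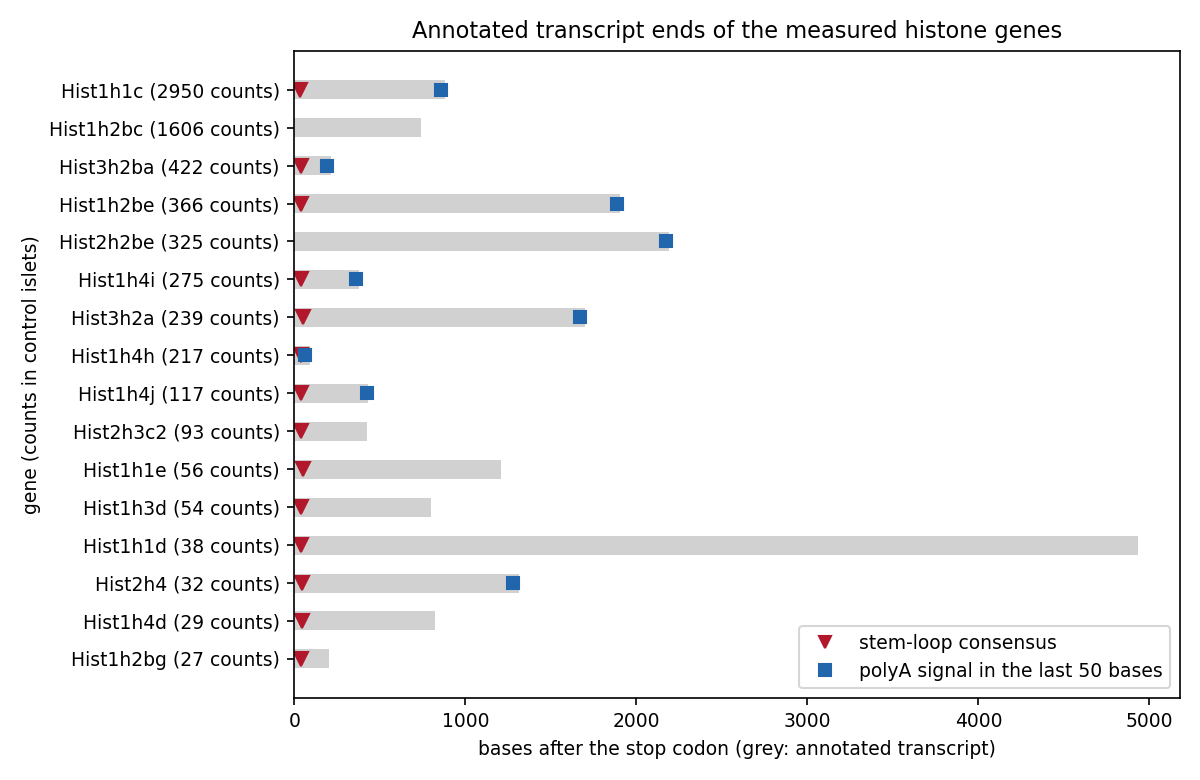
Annotated 3′ UTR of the 16 measured histone genes as distance in bases after the stop codon, with red triangles for the stem-loop consensus and blue squares for a poly(A) signal in the last 50 bases. The loops lie close to the stop codon, and in 9 genes a poly(A) signal lies at the far end.

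The gene clusters contributed unequally. The 30 genes of the second Hist1 block (chr13:23531050-23934851) held 5489 of the 7107 histone counts in control islets. The 22 genes of the first Hist1 block (chr13:21715763-22043676) held 470. The 9 Hist2 genes on chromosome 3 held 463, the 2 Hist3 genes on chromosome 11 held 661, and Hist4h4 on chromosome 6 held 24. The first Hist1 block held 352 counts (labelled knockout), 62 (RIP) and 51 (IgG) in the other libraries.

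In 12 pairs an H2A gene and an H2B gene start back to back, 176 to 306 bases apart. In 2 of these pairs the partners were counted at very different levels, and in the other 10 no gene had more than 31 counts in any library. Hist1h2ac had 10, 8, 0 and 0 counts in the control, labelled knockout, RIP and IgG libraries, where its partner Hist1h2bc, starting 251 bases away, had 1606, 1830, 456 and 1290. Hist2h2ac had 9, 13, 0 and 0 counts, and its partner Hist2h2be, 239 bases away, had 325, 357, 60 and 458. Hist1h2ac and Hist2h2ac are named here because of these values. In the 7 pairs of the first Hist1 block neither partner had more than 7 counts in any library.

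The promoters are shown for this shared region and for the Hist3 pair, whose members were counted very differently in the IgG library. RefSeq (GRCm38.p6) held a start for 59 of the 64 genes. Each line gives the 250 bases before the start, 5′ to 3′ on the strand of the gene. Capitals mark the CCAAT box, the TATA box (searched as TATAAA) and the octamer (searched as ATTTGCAT), each on either strand.
Hist1h2ac, shared with Hist1h2bc, chr13:23683960-23684209, minus strand: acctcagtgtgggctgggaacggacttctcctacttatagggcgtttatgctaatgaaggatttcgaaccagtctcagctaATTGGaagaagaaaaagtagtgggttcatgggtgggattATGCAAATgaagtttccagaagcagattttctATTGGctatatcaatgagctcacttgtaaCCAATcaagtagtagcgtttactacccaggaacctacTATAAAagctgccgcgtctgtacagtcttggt
Hist3h2ba, chr11:58948661-58948910, plus strand: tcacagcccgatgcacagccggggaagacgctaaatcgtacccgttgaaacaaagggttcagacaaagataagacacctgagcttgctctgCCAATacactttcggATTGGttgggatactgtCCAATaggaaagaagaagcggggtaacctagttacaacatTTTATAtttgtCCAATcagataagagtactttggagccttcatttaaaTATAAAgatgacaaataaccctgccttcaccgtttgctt
Hist3h2a, chr11:58954435-58954684, plus strand: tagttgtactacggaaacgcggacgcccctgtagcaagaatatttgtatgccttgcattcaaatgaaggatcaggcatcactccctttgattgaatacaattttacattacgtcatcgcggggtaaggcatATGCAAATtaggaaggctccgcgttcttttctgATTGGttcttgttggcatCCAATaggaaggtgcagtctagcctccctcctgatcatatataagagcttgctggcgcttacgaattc

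CCAAT letters were found in 48 of the 59 promoters (81.4%) and in 33.8% of 32791 other promoters of the same length. They were in all 18 H2A and all 13 H2B promoters and in 3 of 12 H4 promoters. TATAAA was in 29 of 59 (49.2%), against 12.3% of the others. The octamer was in 7 H2A and 5 H2B promoters and in 0 of the H1, H3 and H4 promoters, 20.3% of all 59 against 1.57% of the others. These are matches of letters, not measured sites.

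By its label, the islet comparison addresses which RNAs differ when IMP2 is removed. That removal could not be checked here, since Igf2bp2 counts were not lower, and markers of other cells also differed as given above. Histone mRNA levels were close between the library labelled knockout and control islets. A call required an exact 95% interval clear of 1 and a difference of 1.5-fold or more. Of the 16 measured histone genes, 0 were called higher and 0 lower, where 21.4% of 15735 genes were called (6.13% higher and 15.3% lower). Their ratios ran from 0.777 to 1.33, and their median log2 ratio was 0.22 against 0.00 for all measured genes. With at least 10 counts over both libraries in place of the 1 CPM minimum, the median was 0.000464. No group has a replicate, so no p-value is given and each ratio compares a pair of libraries.

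No histone gene passed the call, and the values of the most counted genes lay on both sides of 1. The ratio over control islets was 1.23 for Hist1h1c (95% interval 1.17 to 1.30) and 1.28 for Hist1h2bc (1.20 to 1.37). It was 1.23 for Hist2h2be (1.06 to 1.44) and 1.26 for Hist3h2a (1.05 to 1.51). These 4 genes were the ones whose interval lay above 1. The interval lay below 1 for Hist1h2be at 0.777 (0.659 to 0.915) and for Hist1h4i at 0.818 (0.678 to 0.984). Hist3h2ba, the second H2B gene by counts in control islets, stood at 1.09 (0.953 to 1.26). The highest ratios, Hist2h3c2 at 1.33 (0.9996 to 1.77) and Hist1h4d at 1.32 (0.779 to 2.24), rest on 93 and 29 control counts and have wide intervals. Hist1h4h stood at 0.839 and Hist1h4j at 0.874, with intervals that include 1.

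Summed per type, the ratio was 1.23 for H1 (1.17 to 1.29), 1.20 for H2A (1.03 to 1.41), 1.18 for H2B (1.12 to 1.25), 1.13 for H3 (0.918 to 1.39; 0.931 without Hist2h3c2) and 0.853 for H4 (0.764 to 0.952). The interval of H4 does not overlap that of H1, H2A or H2B, on counting error alone. By kind of transcript end, the ratio was 1.14 for genes with a poly(A) signal, 1.14 for genes with only a stem-loop and 1.26 for those with neither. The 48 genes below the limit summed to 261 counts (control islets) and 223 (labelled knockout), a ratio of 0.960 (0.800 to 1.15).

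**Figure D4:**
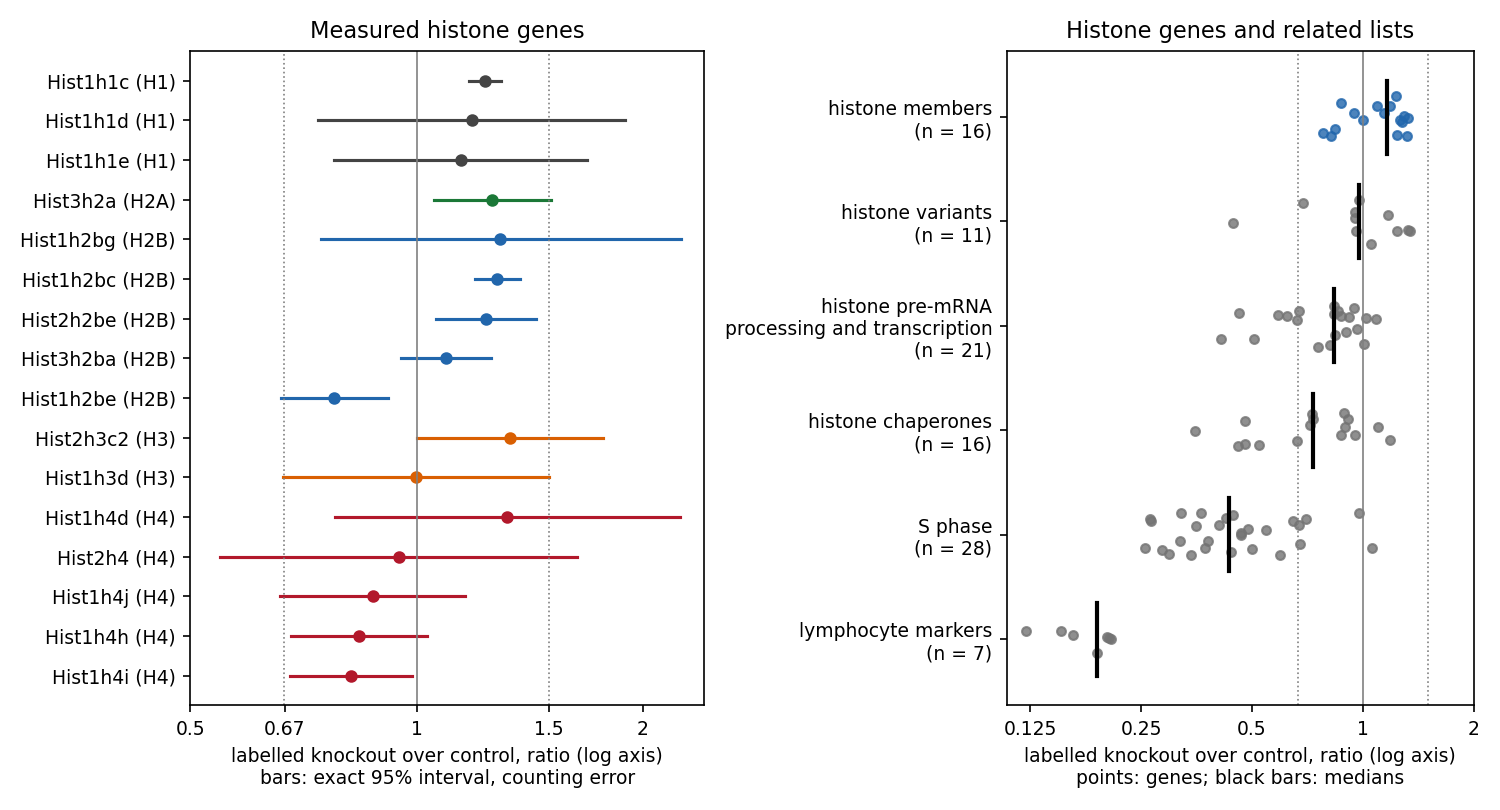
Left, ratio of the labelled knockout over control islets for each of the 16 measured histone genes on a log axis, with exact 95% intervals for counting error and dotted lines at the 1.5-fold limits. Right, the ratios of single genes in the histone genes, 4 related lists and the lymphocyte markers, with black bars at the medians; the histone genes lie between 0.777 and 1.33 while most S phase genes lie below the lower limit.

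Every called gene of the lists for S phase, histone pre-mRNA processing and histone chaperones was lower in the library labelled knockout. Of 28 measured S phase genes 23 were called lower and 0 higher (median log2 ratio -1.21), where 15.3% of all measured genes were lower and 6.13% higher. Among them, Mcm5, a subunit of the replicative helicase, went from 1407 counts (control islets) to 357 (labelled knockout) and was 3.51-fold lower. Cdt1, which loads that helicase, was 3.35-fold lower. Of 21 genes of histone pre-mRNA processing and histone gene transcription 6 (28.6%) were called lower and 0 higher (median -0.26), beside the same 15.3% lower over all genes. Slbp, which encodes the stem-loop binding protein, had 664 counts (control islets) and 273 (labelled knockout) and was 2.16-fold lower (1.88 to 2.50). Eri1, an exonuclease that acts on the stem-loop, was 2.43-fold lower (2.10 to 2.83). Cpsf2 and Cpsf3, subunits of the complex that cuts histone pre-mRNA, were 1.98-fold and 1.51-fold lower. Casp8ap2 was 1.61-fold and Cstf2 was 1.70-fold lower. Npat, the coactivator of histone gene transcription, had a ratio of 0.756 and was not called.

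Of 16 measured histone chaperones 6 (37.5%) were called lower and 0 higher (median -0.45), where 15.3% of all measured genes were lower. They were Asf1b at 2.86-fold, Chaf1a at 2.18-fold and Chaf1b at 2.10-fold, which serve replication-coupled nucleosome assembly, Supt16 at 2.08-fold, Hat1 at 1.91-fold and Npm1 at 1.51-fold. Of 11 measured histone variant genes, whose mRNAs mostly carry poly(A) tails, 1 (9.09%) was called lower and 0 higher (median -0.03), a share below that of all genes. It was Cenpa, the centromeric H3 variant, at 2.25-fold lower (1.86 to 2.73). H1f0, the linker variant of resting cells, had a ratio of 1.24 (1.18 to 1.30), beside 1.23 for Hist1h1c. Lymphocyte markers were lower in the same library, with 7 of 7 called and summed levels of 1119 and 202 CPM. The part of those cells in the lower S phase, processing and chaperone genes, and in the histone values, was not tested.

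The RIP and IgG comparison addresses which RNAs were recovered with IMP2 above the antibody control. Histone genes went both ways, at shares near the background. With a limit of 2-fold, 6 of the 16 genes measured in this pair were called higher in the RIP and 6 lower, where 73.7% of 14822 genes were called (43.2% higher and 30.5% lower). Their median log2 ratio was 0.18, and that of all measured genes was 0.44. The scaling matters here: totals of gene counts raise every log2 ratio of this pair by 0.69, and totals without acinar and hormone genes by 1.13. The calls were then 7 higher and 4 lower, and 9 higher and 4 lower. The shares of all genes called under these totals are not given, so these counts have no background beside them.

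The genes higher in the RIP were few in counts in at least 1 of the libraries. Hist3h2ba had 73 counts in the RIP and 1 in IgG, a ratio of 99.1 (17.2 to 3969). Hist1h2be had 82 and 14 counts, a ratio of 7.96 (4.48 to 15.2). Both were well counted in islets and low in the IgG library alone. Hist1h1b had 22 counts in the RIP and 1 in IgG, a ratio of 29.9 (4.83 to 1233). Hist1h3e, Hist1h3f and Hist1h4d had 20, 22 and 21 counts in the RIP and 0 in IgG. Against 3 counts they were at least 9.05-fold, 9.96-fold and 9.51-fold higher, and the lower limits of their exact 95% intervals, which also cover the counting error of the RIP counts, were 6.71, 7.44 and 7.07. Hist1h3e and Hist1h3f carry the same 26 letters around the stem-loop, as printed above, and share much of their exon sequence with other genes (73.4% and 49.3% of 50-base stretches).

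The genes lower in the RIP included leading genes of H2A, H2B, H3 and H4. Hist1h4h had 14 counts in the RIP and 238 in IgG and was 12.5-fold lower (7.31 to 23.2). Hist2h2be had 60 and 458 counts and was 5.62-fold lower (4.29 to 7.48). Hist2h3c2 had 2 and 34 counts, a ratio of 0.0799 (0.00930 to 0.312). Hist3h2a was 2.41-fold lower (1.89 to 3.08), on 90 and 294 counts, but its ratio was 0.6704 with totals of gene counts and 0.907 if acinar and hormone genes are left out of them, which ends the call. Hist1h2bg had 0 and 27 counts and was at least 6.63-fold lower against 3 counts, with a 95% limit of 5.03-fold. Hist1h2bc was 2.08-fold lower (1.87 to 2.32), but its ratio was 1.05 when libraries were scaled by totals without acinar and hormone genes. Hist1h1c, the most counted gene, had a ratio of 0.760 (0.6999 to 0.824), which became 1.66 under the same totals, and was not called. Hist3h2ba, Hist1h2be, Hist2h2be, Hist2h3c2 and Hist1h4h kept their direction and call under each scaling run.

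The calls depended on whether each read was taken as a molecule. Estimated reads per molecule were 18 in the RIP and 21 in IgG, as medians over genes at 0 in both islet libraries. Genes with the lowest counts were left out, which raises these medians, and each gene was taken as 1 molecule. The estimates are therefore rough and may be too high. The smallest histone counts above 0, 2 in the RIP and 1 in IgG, lie far below them. Counts of control islets were not divided. With counts divided by them, the RIP had 0 histone genes higher and 3 lower, namely Hist1h2bc, Hist2h2be and Hist1h4h. The share of all genes called on divided counts is not given. Counts of 20 to 36 would then stand for 1 or 2 molecules. The fat markers and hormone markers given above differ by large factors between this pair of libraries, and their part in the histone ratios was not tested.

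Against control islets, histone genes went both ways in either library. These comparisons share the control library with each other and with the islet comparison, so their values are given side by side. In the RIP, 6 of 18 measured histone genes were called higher and 5 lower (all genes: 16.8% higher, 24.3% lower, 41.2% in all). In the IgG library, 7 of 15 were called higher and 5 lower (all genes: 25.7%, 47.3% and 73% in all). The median log2 ratio was 0.42 for the RIP, against -0.12 for all measured genes, and 0.47 for the IgG library, against -0.79. Totals without acinar and hormone genes shift every log2 ratio by -0.44 for the RIP and by -1.51 for the IgG library, where 1 gene was then called higher and 8 lower. Totals of all gene counts shift them by -0.28 and -0.91, with 4 higher and 7 lower for the IgG library. The shares of all genes called under either of these totals are not given.

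Among H2B genes, Hist3h2ba, Hist1h2be and Hist2h2be differed plainly between these comparisons, and so did some genes of other types given below. For Hist3h2ba the ratio to control islets was 0.918 (0.706 to 1.18) in the RIP and 0.00891 (0.000225 to 0.0499) in the IgG library. For Hist1h2be it was 1.19 (0.924 to 1.51) in the RIP and 0.144 (0.0778 to 0.244) in the IgG library. For Hist2h2be it was 0.980 (0.731 to 1.29) in the RIP and 5.30 (4.59 to 6.13) in the IgG library. For Hist2h2be the IgG value was 1.86, under the 2-fold limit, with totals that leave out acinar and hormone genes. Hist3h2ba and Hist1h2be were called lower in the IgG library under each scaling run, while the RIP intervals of all 3 genes included 1.

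Other abundant genes were higher in the IgG library under the trimmed-mean scaling. Hist1h1c had a ratio to control islets of 1.64 (1.52 to 1.77) in the RIP and 2.08 (1.96 to 2.21) in the IgG library, but 0.730 in the IgG library with totals that leave out acinar and hormone genes. Hist1h2bc had 1.51 (1.36 to 1.67) and 3.02 (2.80 to 3.25), the latter 1.06 under those totals. Hist3h2a had 1.999 (1.55 to 2.56) and 4.62 (3.89 to 5.51), the latter 1.62 under those totals. Hist1h4h was 0.342 (0.184 to 0.587) in the RIP and 4.12 (3.42 to 4.98) in the IgG library, or 1.45 there under those totals. Hist1h2bg was 3.76-fold higher (2.12 to 6.66) in the IgG library on 27 counts, or 1.32-fold under those totals. None of these 5 genes was called higher in the IgG library under those totals.

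The genes called higher in the RIP against control islets were all low in counts. They were Hist1h3f at 38.9-fold (11.7 to 203), Hist1h3e at 10.6-fold (4.74 to 25.4), Hist1h1b at 9.73-fold (4.61 to 21.6), Hist1h4c at 8.66-fold (4.74 to 16.2), Hist1h4f at 6.37-fold (2.52 to 16.5) and Hist1h4d at 3.84-fold (2.08 to 6.98). Their RIP counts were 12 to 31. Hist1h4c was also higher in the IgG library, at 7.12-fold (3.98 to 13.1), with 36 counts there, 31 in the RIP and 19 in control islets. With counts divided by reads per molecule, 1 of the 6, Hist1h4c, was still called.

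The genes called lower against control islets in both libraries were Hist1h4j, Hist1h1e and Hist1h3d, each at 0 counts in either library. Against 3 counts they were at least 7.35-fold, 3.52-fold and 3.39-fold lower in the RIP and at least 10.4-fold, 4.97-fold and 4.79-fold lower in IgG. The limits of their exact 95% intervals were 5.88, 2.77 and 2.66 in the RIP and 8.30, 3.91 and 3.76 in IgG. Hist2h3c2 was 8.76-fold lower (2.36 to 73.4) in the RIP, on 2 counts, and stood at 1.37 (0.899 to 2.06) in the IgG library, or 0.482 under totals without acinar and hormone genes. With counts divided by reads per molecule, 0 histone genes were called lower in the RIP against control islets, and 1 in the IgG library, Hist3h2ba.

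The related lists were counted in the same pairs. Of 28 measured S phase genes 16 were called lower and 1 higher in the RIP against control islets (median log2 ratio -1.34), and 21 lower and 2 higher in the IgG library (median -2.49). Over all measured genes 24.3% were lower in the RIP and 47.3% in IgG. Of 20 measured processing and transcription genes 4 (20.0%) were called lower and 0 higher in the RIP, near that background, and 13 lower and 2 higher in the IgG library. Slbp had 664 counts in control islets, 76 in the RIP and 65 in IgG. The RIP over control ratio of Slbp was 0.608 (0.473 to 0.771). H3f3a, a replacement H3 gene, had 173 counts in the RIP and 13 in IgG, where the ratio to control islets was 0.0903. H2afj, an H2A variant gene, had 222 counts in the RIP and 2303 in IgG, where that ratio was 10.1. Lymphocyte markers were lower than in control islets in both libraries, with 7 of 7 called in each, and fat markers were higher, with 6 of 6 in each. The part of these tissues in the histone values was not tested.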

How the data were processed

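The authors deposited 1 file per library with whole-number read counts per gene. STAR, HTSeq and the mm10 build are named, per the submitters' processing notes; tool versions, annotation release and strand option are not given in the sources used here. Closing entries (5 per file) with no gene held 50.8%, 50.3%, 72.4% and 70.5% of the deposited total in the control, labelled knockout, RIP and IgG libraries and were left out. Reads aligned more than once, which such counting leaves out, made up 30.7%, 28.4%, 36.0% and 48.2%.

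Symbols, transcripts and coordinates came from GENCODE M21 (GRCm38), which matched 42548 of 43629 identifiers, and promoters from RefSeq (GRCm38.p6). Library pairs were scaled by TMM, a trimmed mean of gene ratios, with edgeR 4.0.16 (R 4.3.3). Measured genes had a mean of at least 1 CPM over both libraries. The ratio of scaled counts has an exact Clopper-Pearson 95% interval; a call needs an interval that excludes 1 and a fold of 1.5 (islet pair) or 2 (other pairs). Before log2 medians 0.5 counts were added, and a fold against 0 counts uses a floor of 3 counts. The procedure was tested on simulated counts of the islet pair only, with counting error alone. That simulation did not cover the RIP or IgG library or several reads per molecule. Alternatives included DESeq2 1.42.0 size factors, library totals and other minimum levels. Other steps used Python 3.11.15, SciPy 1.17.1 and pandas 2.3.3.

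The members and lists were chosen with earlier results of these data known. Named members are those called in any comparison, the 3 most counted per type and the 3 highest and lowest ratios per comparison; of each related list, up to 6 called genes. Slbp, Npat, H1f0 and Cpsf3 are also named for their role, and H3f3a and H2afj after their values were seen. The 1 library per group gives no replicate error, so precision is that of counting only.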

Additional observations from a re-analysis of the deposited data

How the results depend on the processing

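No call or count of calls for the labelled knockout over control islets changed under any alternative run, but uncalled values did: the summed H3 ratio went from 1.13 to 0.931 without its most counted gene, the median log2 ratio of histone genes from 0.22 to 0.000464 with at least 10 counts, and Hist1h3d from 0.999 to 1.02 under totals without acinar and hormone genes. No paired analysis was possible because each group has 1 library. The comparisons with the RIP and IgG libraries depended on the choices, and where no cause is given it was not tested. For the alternatives the shares of all genes called are not given, so these counts of calls have no background beside them. With a minimum mean of 5 CPM, which tests fewer genes, the histone genes called higher and lower went from 6 to 2 higher (RIP over IgG), from 6 to 0 higher and 5 to 1 lower (RIP over control) and from 5 to 2 lower (IgG over control), and the median log2 ratio was -0.73 for RIP over IgG and 1.33 for IgG over control. With at least 10 counts in place of that minimum, 10 were lower for RIP over control and 9 for IgG over control, and the medians were -0.24 and -1.27. On estimated molecules, an alternative chosen after seeing the data, the counts for RIP over IgG were 0 higher and 3 lower, for RIP over control 1 and 0, and 1 lower for IgG over control. With library totals, IgG over control gave 4 higher and a median of -0.44. With totals without acinar and hormone genes it gave 1 higher, 8 lower and a median of -1.04, and the median for RIP over control was -0.0163. Under those 2 totals in turn, the summed ratios for RIP over IgG were 0.708 and 0.958 for H2A, 2.83 and 3.84 for H3, and 0.734 and 0.994 for H4. For IgG over control they were 1.07 and 0.707 for H1, 1.89 and 1.25 for H2A, 1.28 and 0.848 for H2B, and 0.365 and 0.241 for H3. Under totals without acinar and hormone genes Hist1h2bc stood at 1.05 for RIP over IgG, and Hist1h1c at 0.730 and Hist2h3c2 at 0.482 for IgG over control. DESeq2 size factors put the H2B sum for RIP over IgG at 0.494, past the 2-fold limit. Without the most counted gene of the type, RIP over IgG was 2.99 for H1 and 1.24 for H4, RIP over control was 0.374 for H2A and 2.40 for H3, and IgG over control was 0.330 for H1, 1.60 for H2B and 0 counts in the IgG library (ratio 0.0) for H2A and H3. The depth of the RIP, where 3 counts equal 0.498 CPM, limits what can be said of the 48 histone genes at 0 there. Several reads per molecule would raise that limit.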
